A study of Mus musculus with 18 samples.

Results

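The 6 genes *Sox10*, *Fabp7*, *Erbb3*, *S100b*, *Foxd3* and *Cdh19*, known from Schwann cells and enteric-type glia, were followed in whole embryonic mouse lungs. They were taken by exact symbol from tables of 23420 gene rows, in which each of the 6 was listed. RNA-Seq libraries came from 3 experiments that asked how lungs change when planar cell polarity signaling is disturbed, and each experiment had 3 mutant libraries and 3 libraries from its own controls, 18 in all. In the *Vangl1/2* experiment (E12.5, embryonic days post coitum) all 6 libraries came from lungs without *Vangl1* (Vangl1-/-, a gene-trap allele). The mutants lacked *Vangl2* as well (Vangl1-/- and Vangl2-/-). The *Vangl2* null allele had been made from a floxed allele with *Sox2-Cre*, which acts early and throughout the embryo. In the *Dermo1-Cre* experiment (E12.5) the controls were Wnt5af/+; Dermo1Cre and the mutants Wnt5af/f; Dermo1Cre. In the *Sox9-Cre* experiment (E13.5) they were Wnt5af/+; Sox9Cre and Wnt5af/f; Sox9Cre. Thus the controls of both *Wnt5a* experiments also carried the Cre and 1 floxed allele. *Dermo1-Cre* served to target the mesenchyme and *Sox9-Cre* the epithelium, and whether either Cre acted in glia was not tested. The number of embryos behind a library is not given in the sources used here, and p-values measure the spread between these libraries.

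The glia of the lung arise from neural crest cells that enter with the vagus nerve, in part by way of the foregut, and settle beside intrinsic neurons and along nerve fibers on the airways. *Sox10* is a transcription factor of neural crest and glia that maintains crest progenitors and is needed to specify peripheral glia. It activates *Erbb3*, a receptor that signals with *Erbb2* when neuregulin on axons binds, and this signal keeps Schwann cell precursors alive. *Foxd3* is a crest transcription factor, *Fabp7* a fatty acid binding protein of immature glia, *S100b* a calcium binding protein of later glia, and *Cdh19* a cadherin of Schwann cell precursors.

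In GRCm38 (GENCODE annotation) *Sox10* lies on the minus strand at chr15:79154908-79165240 and *Erbb3* on the minus strand at chr10:128567523-128589652. *Fabp7* (chr10:57784881-57788450) and *S100b* (chr10:76253853-76261159) are on the plus strand, as is *Foxd3* (chr4:99656299-99658622). *Cdh19* is on the minus strand at chr1:110888326-110977584. The reads counted for each gene could come from any of its exons. RefSeq's promoter table (GRCm38.p6) held 3 of the 6 genes. The bases upstream of these 3 genes, *Fabp7*, *S100b* and *Foxd3*, are printed because they were the only ones of the 6 available. Each stretch is on the plus strand and ends before the annotated gene. They cover chr10:57784673-57784880 for *Fabp7*, chr10:76253586-76253835 for *S100b* and chr4:99656049-99656298 for *Foxd3*, and capitals mark matches to the motifs named after them.
Fabp7: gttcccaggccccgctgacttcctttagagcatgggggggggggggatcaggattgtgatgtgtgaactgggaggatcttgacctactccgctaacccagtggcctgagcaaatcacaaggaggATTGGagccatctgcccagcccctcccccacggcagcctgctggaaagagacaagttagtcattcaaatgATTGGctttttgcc
S100b: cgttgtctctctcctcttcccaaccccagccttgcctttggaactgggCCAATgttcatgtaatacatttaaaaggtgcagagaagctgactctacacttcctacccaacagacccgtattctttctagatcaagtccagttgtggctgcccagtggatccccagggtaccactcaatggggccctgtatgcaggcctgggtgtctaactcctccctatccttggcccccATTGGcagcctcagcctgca
Foxd3: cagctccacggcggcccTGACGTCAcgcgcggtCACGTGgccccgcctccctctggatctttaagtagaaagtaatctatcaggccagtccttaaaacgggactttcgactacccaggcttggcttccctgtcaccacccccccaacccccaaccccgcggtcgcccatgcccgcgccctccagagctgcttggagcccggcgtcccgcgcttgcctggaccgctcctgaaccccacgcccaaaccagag
The capitals in *Fabp7* and *S100b* are CCAAT boxes (CCAAT on either strand), which 33.8% of 32851 promoters held in the 250 bases upstream. *Foxd3* held instead TGACGTCA (a cyclic AMP response element), present in 1.55% of promoters, and the E-box CACGTG, present in 6.02%. The SOX core (ACAAAG or ACAATG, in 25.2% of promoters) and TATAAA (in 12.4%) had no match in the printed stretches. The motifs do not overlap each other and were chosen after the sequences had been seen, and a match is a description of letters only.

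All 6 genes were detected in each of the 18 libraries, but at very different depth. *Erbb3* had between 479 and 859 reads per library, *Sox10* between 43 and 152, and *Fabp7* between 38 and 152. The other 3 were sparse, with 6 to 35 reads for *Foxd3*, 7 to 23 for *Cdh19* and 1 to 23 for *S100b*. Values below are normalized counts, that is, reads divided by a size factor for the library (0.952 to 1.07), so that 10 normalized counts rest on about 10 reads. Libraries held 15945393 to 19814346 reads on genes. A gene was tested if at least 3 of the 6 libraries of an experiment had at least 10 normalized counts, and 5 of the 6 genes passed in each experiment. *S100b* passed in none.

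Levels between genes can be compared only per length. As normalized counts per kb of exon, the *Vangl1/2* controls held 95.9 ± 14.7 (SD, n = 3) for *Erbb3*, 58.1 ± 2.87 for *Fabp7* and 29.8 ± 18.3 for *Sox10*. *Foxd3* (9.31 ± 4.14), *S100b* (7.16 ± 6.47) and *Cdh19* (3.55 ± 1.52) followed. The libraries of *Erbb3*, *Fabp7*, *Sox10* and *Foxd3* did not overlap between neighbours in this order, and those of *S100b* overlapped both *Foxd3* and *Cdh19*. In the *Vangl1/2* mutants *Fabp7* (32.2 to 53.6) and *Sox10* (20.3 to 52.1) overlapped too. In the *Sox9-Cre* mutants *Fabp7* (30.6 to 90.6) overlapped both *Erbb3* (80.1 to 106) and *Sox10* (15.6 to 42.1), and in the *Sox9-Cre* controls it overlapped *Erbb3* (65.8 to 90.2 against 84.02 to 98.3). The same order of means held in the *Vangl1/2* mutants, the *Dermo1-Cre* controls and the *Sox9-Cre* mutants, and in the *Sox9-Cre* controls the means of *S100b* (7.37) and *Foxd3* (7.27) were nearly equal and the order of that pair turned. In the *Dermo1-Cre* mutants the mean of *Fabp7* (101 ± 30.9) lay above that of *Erbb3* (90.1 ± 2.42), but their libraries overlapped (65.3 to 121 for *Fabp7*, 87.3 to 91.7 for *Erbb3*).

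**Figure D1:**
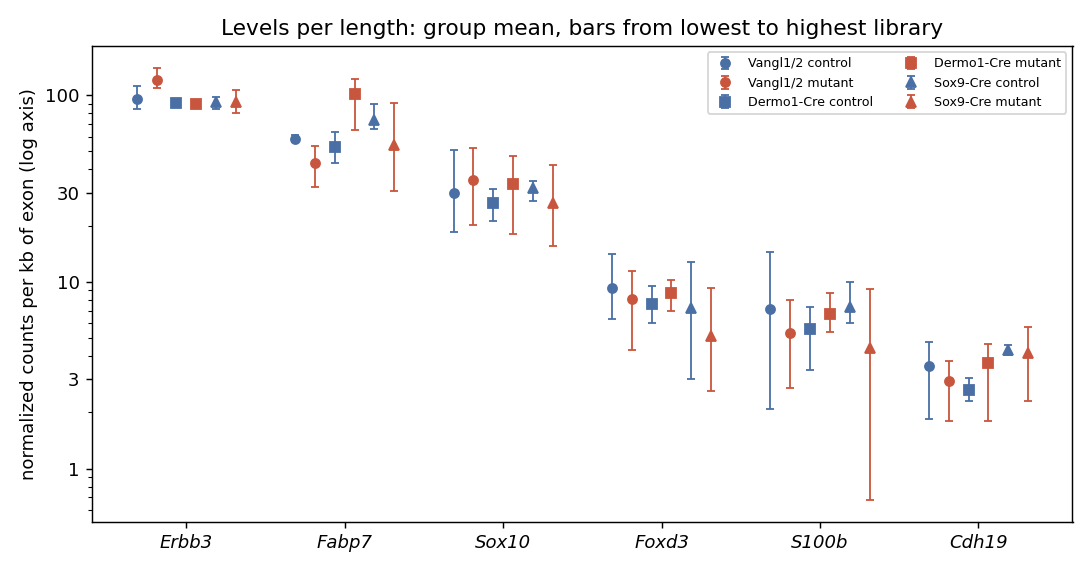
Level per length of the 6 genes, in normalized counts per kb of exon on a log axis, for the 6 groups of 3 libraries. Points are group means and bars run from the lowest to the highest library. The means of *Erbb3* lay between 90.1 and 95.9 in 5 of the 6 groups and at 120.4 in the *Vangl1/2* mutants, and the bar of *S100b* overlapped those of *Foxd3* and *Cdh19* in the *Vangl1/2* controls.

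Before groups are compared, 2 libraries need naming. On the first principal component over all tested genes (51.7% of the variance in the *Vangl1/2* experiment), control replicate 2 scored 17.0, among the mutants (15.1 to 21.5) and away from the other controls (-30.1 and -44.7). In the *Sox9-Cre* experiment (43.6%), mutant replicate 1 scored 18.5, among the controls (5.42 to 19.5), and the other mutants scored -18.8 and -35.7. Values without these libraries are given where they matter. The deleted gene matched its label in the *Vangl1/2* experiment. *Vangl2* stood at 277, 406 and 334 normalized counts in controls and at 86.5, 79.8 and 89.6 in mutants (log2 fold change -1.96, limma adjusted p = 0.0318). *Vangl1* was trapped in the lungs of all 6 libraries. It still gave 162, 219 and 113 in controls and 239, 274 and 242 in mutants (0.65, limma adjusted p = 0.233). *Wnt5a* read over the whole gene was 472, 430 and 489 against 317, 436 and 230 with *Dermo1-Cre* (-0.55, limma adjusted p = 0.406). With *Sox9-Cre* it was 473, 453 and 426 against 442, 362 and 448 (-0.12, limma adjusted p = 0.9999). Reads from the floxed part of *Wnt5a* cannot be told from the rest in values per gene.

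None of the 5 tested glial genes passed an adjusted p of 0.05 in any experiment (limma on log2 of the value plus 1, Benjamini-Hochberg over all tested genes). The background was close to none as well, since 0.00699% of 14303 genes passed with *Vangl1/2*, 0.0140% of 14277 with *Dermo1-Cre* and 0% of 14293 with *Sox9-Cre*. At an unadjusted p below 0.05 there were 0, 1 and 0 glial genes, the 1 being *Fabp7* with *Dermo1-Cre*, against 20.5%, 10.2% and 3.90% of all tested genes in either direction. Of all tested genes, 12.0% were higher and 8.56% lower in mutants at that level with *Vangl1/2*, 5.42% and 4.76% with *Dermo1-Cre*, and 1.08% and 2.81% with *Sox9-Cre*. Groups of 3 libraries that did not overlap were found for 1, 1 and 0 of the tested glial genes, beside 22.3%, 15.6% and 8.78% of all tested genes (mutants higher in 13.6%, 7.65% and 4.42%, lower in 8.68%, 7.92% and 4.36%). On the reads recovered from the values, edgeR and DESeq2 called 0 of them as well, though DESeq2 gave no adjusted p for any of the 5 with *Vangl1/2* and for 1 with *Dermo1-Cre*. The median log2 fold change of the 5 genes was -0.21 with *Vangl1/2*, 0.25 with *Dermo1-Cre* and -0.38 with *Sox9-Cre*, beside -0.0093, 0.00071 and 0.0013 over all tested genes. In bulk tissue, fewer glial cells and less RNA per glial cell cannot be told apart.

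**Figure D2:**
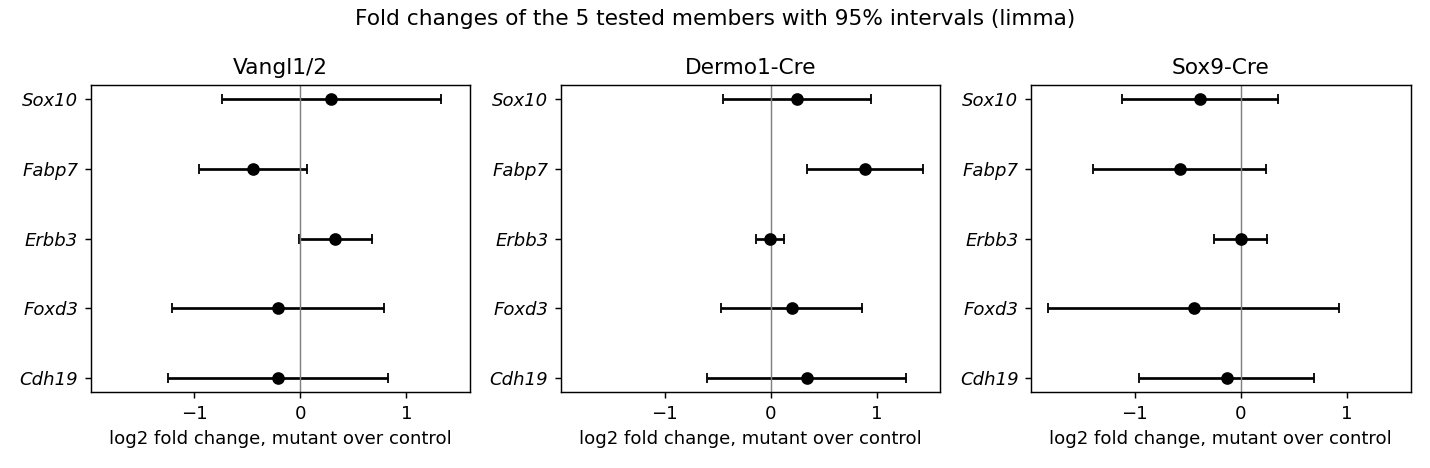
Log2 fold changes (mutant over control) of the 5 tested genes in each experiment, with 95% intervals from limma, 3 libraries per group. The interval of *Fabp7* with *Dermo1-Cre* (0.34 to 1.44) lies above 0, and those of the other 14 contrasts include 0.

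*Fabp7* showed the largest difference among the tested glial genes, a higher level in the *Dermo1-Cre* mutants. The controls held 54.1, 64.2 and 79.3 normalized counts and the mutants 81.7, 145 and 152, that is, 65.9 ± 12.7 against 126 ± 38.6 (SD, n = 3). Every mutant lay above every control, though replicate 1 of the mutants cleared the highest control by little. The log2 fold change was 0.89 ± 0.24 (SE), a fold of 1.86 with a 95% interval of 1.27 to 2.71. It did not pass correction (limma unadjusted p = 0.0048, adjusted p = 0.313), and an exact two-sided permutation test gave p = 0.1, the least that 3 libraries against 3 allow. Non-overlap with mutants higher was found for 7.65% of all tested genes. Under the other settings the log2 fold change ran from 0.73 to 1.18, with adjusted p between 0.0525 (DESeq2) and 0.827 (without control replicate 2).

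In the *Vangl1/2* experiment *Fabp7* ran the other way. Controls held 70.2, 70.8 and 76.7 normalized counts and mutants 40.3, 55.2 and 67.0, or 72.6 ± 3.59 against 54.1 ± 13.4 (SD, n = 3). All 3 mutants lay below the controls, as did 8.68% of all tested genes (exact permutation p = 0.1). The log2 fold change of -0.45 ± 0.22 (SE) had a 95% interval of -0.95 to 0.062 (limma adjusted p = 0.274). When the trend of fold change with transcript length was removed, it shrank to -0.12. *Fabp7* has the shortest exon length of the 6 genes, 1.25 kb.

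With *Sox9-Cre* the *Fabp7* values overlapped, at 82.3, 82.6 and 113 normalized counts in controls and 113, 38.2 and 52.3 in mutants. Mutant replicate 1 was level with the highest control, and the other mutants were the lowest of the experiment. The log2 fold change was -0.58 ± 0.36 (SE), and its 95% interval of -1.39 to 0.24 holds both a large loss and a slight gain (limma adjusted p = 0.9999). Without mutant replicate 1 it came to -1.02 (limma adjusted p = 0.149), and without mutant replicate 2 to -0.25.

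*Sox10*, which marks crest and glia as a whole, overlapped between mutants and controls in each experiment. With *Vangl1/2* it stood at 55.8, 142 and 51.5 normalized counts in controls and at 56.4, 92.6 and 145 in mutants, a log2 fold change of 0.29 ± 0.45 (SE; 95% interval -0.74 to 1.33, limma adjusted p = 0.709). The libraries of 1 group thus differed by up to 2.75-fold, and control replicate 2, which stood with the mutants on the first component, was the high control. Without it the log2 fold change was 0.76 (limma adjusted p = 0.0919), and without mutant replicate 3 it turned to -0.037. With *Dermo1-Cre* the counts were 73.2, 59.2 and 87.2 in controls and 50.4, 132 and 95.9 in mutants, so that the mutants held both the lowest and the highest value. The log2 fold change was 0.25 ± 0.31 (SE; 95% interval -0.44 to 0.94, limma adjusted p = 0.811). It turned to -0.055 without mutant replicate 2. With *Sox9-Cre* the counts were 96.1, 94.6 and 75.8 in controls and 117, 43.3 and 60.5 in mutants (log2 fold change -0.38 ± 0.32, SE; 95% interval -1.12 to 0.35, limma adjusted p = 0.9999). Again mutant replicate 1 was the highest and the other mutants the lowest, and without that library the log2 fold change was -0.78 (limma adjusted p = 0.247). Without mutant replicate 2, the lowest, it was -0.068.

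*Foxd3*, read at a lower depth than *Sox10*, was high in several of the same libraries. With *Vangl1/2* it was 17.6, 32.6 and 14.7 normalized counts in controls and 10.1, 19.7 and 26.6 in mutants (log2 fold change -0.21 ± 0.44, SE, limma adjusted p = 0.785). Control replicate 2 was again the highest, and without it the sign turned (0.11), as it did without mutant replicate 1 (0.16). With *Dermo1-Cre* the values were 14.03, 22.1 and 16.8 against 16.1, 23.8 and 21.0 (0.20 ± 0.30, limma adjusted p = 0.846). With *Sox9-Cre* they were 29.7, 13.9 and 6.98 against 21.5, 6.04 and 8.20 (-0.44 ± 0.60, limma adjusted p = 0.9999), and replicate 1 was the highest of both groups. The sign there rested on control replicate 1, without which it was 0.053.

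*Erbb3*, the neuregulin receptor, had the most reads of the 6 in every library. With *Dermo1-Cre* the controls held 564, 541 and 525 normalized counts and the mutants 525, 552 and 549, which set the difference most tightly of all contrasts here (log2 fold change -0.0032 ± 0.059, SE, limma adjusted p = 0.990). The 95% interval ran from 0.910- to 1.09-fold, so larger changes than these lie outside it. It holds for *Erbb3* in the whole lung, and the share of these reads that came from glia was not tested. With *Sox9-Cre* the counts were 505, 591 and 559 against 542, 482 and 641 (0.00057 ± 0.11, limma adjusted p = 0.9999; interval 0.840- to 1.19-fold). With *Vangl1/2* the controls held 506, 676 and 549 and the mutants 674, 653 and 846, and the groups touched only through control replicate 2. The log2 fold change was 0.33 ± 0.15 (SE; 95% interval -0.013 to 0.67, limma adjusted p = 0.250). Without control replicate 2 it was 0.45 and passed the test (limma adjusted p = 0.0120), but so did 6183 of the 14303 genes in that fit. With the length trend removed it was 0.085. *Erbb3* has the longest exon length of the 6 genes, 6.02 kb.

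*S100b* and *Cdh19* were too sparse to resolve moderate differences. *S100b* had 33 reads in the controls and 24 in the mutants with *Vangl1/2*, 25 and 30 with *Dermo1-Cre*, and 33 and 20 with *Sox9-Cre*. Its normalized counts were 3.10, 21.4 and 7.36 in controls and 4.03, 7.88 and 11.8 in mutants with *Vangl1/2*, where the controls held both the lowest and the highest value. They were 5.01, 9.03 and 10.9 against 9.08, 12.9 and 7.99 with *Dermo1-Cre* and 14.9, 8.96 and 8.98 against 13.7, 1.01 and 5.13 with *Sox9-Cre*, and the groups overlapped in both. Without the filter, limma gave log2 differences of -0.14 ± 0.63 (SE), 0.27 ± 0.39 and -1.04 ± 0.66, with adjusted p of 0.921, 0.839 and 0.9999. *Cdh19* was 7.23, 18.6 and 15.8 normalized counts against 7.04, 12.8 and 14.8 with *Vangl1/2* (log2 fold change -0.21 ± 0.45, SE, limma adjusted p = 0.793). With *Dermo1-Cre* it was 10.02, 9.03 and 11.9 against 18.2, 17.9 and 6.99 (0.34 ± 0.42, limma adjusted p = 0.810). Here 2 mutants lay above all controls and the third mutant below them, and the log2 fold change was 0.13 without mutant replicate 1 and 0.76 without mutant replicate 3. With *Sox9-Cre* it was 16.8, 15.9 and 17.96 against 22.4, 9.05 and 17.4 (-0.13 ± 0.36, limma adjusted p = 0.9999), the mutants lying on both sides of the controls.

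**Figure D3:**
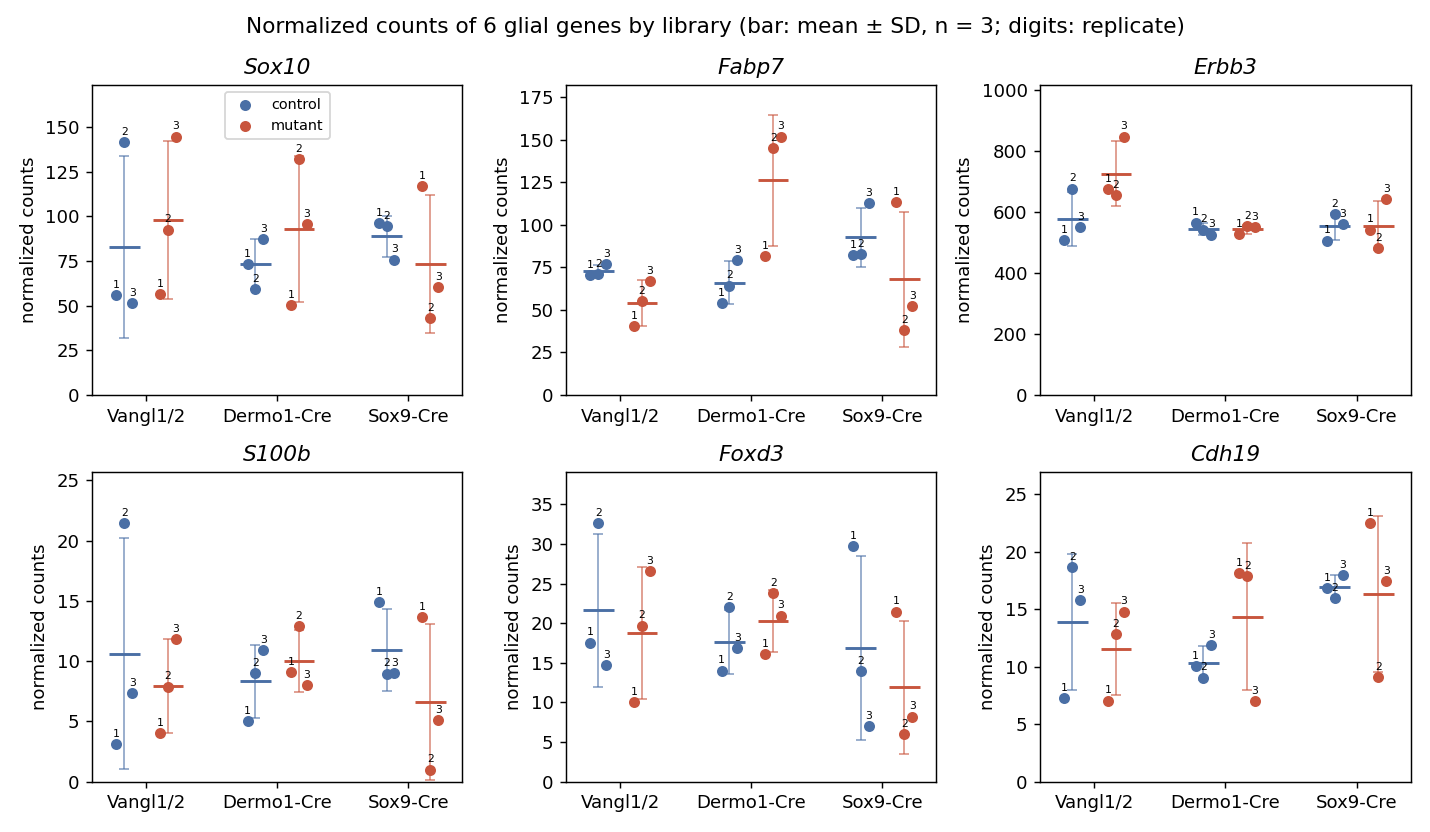
Normalized counts of the 6 genes in each of the 18 libraries, controls in blue and mutants in red, with replicate numbers beside the points and bars for the mean ± SD of 3 libraries. *Fabp7* separates mutants from controls upward with *Dermo1-Cre* (81.7 to 152 against 54.1 to 79.3) and downward with *Vangl1/2* (40.3 to 67.0 against 70.2 to 76.7), and all other gene and experiment pairs overlap.

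Libraries of 1 group differed from each other more in *Sox10* than in *Erbb3*. The coefficient of variation of *Sox10* lay between 12.7% and 61.3% in the 6 groups, while read counting alone would give 10.1% to 11.7%. For *Erbb3* it lay between 2.69% and 15.3%, with 3.70% to 4.29% from counting. In the sparse genes counting took a larger share. *S100b* reached 97.8% in the *Sox9-Cre* mutants, where counting alone gives 38.7%, and *Cdh19* in the *Sox9-Cre* controls (5.998%) lay under its counting value of 24.3%.

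Across the 18 libraries the 6 genes did not all vary together. With log2 values centred within each experiment, Pearson's r between *Sox10* and *S100b* was 0.78 and between *Sox10* and *Foxd3* 0.73. *S100b* was also near *Foxd3* (0.78) and *Cdh19* (0.76). *Sox10* with *Fabp7* came to 0.58, with *Erbb3* to 0.53 and with *Cdh19* to 0.50. For *Erbb3* r ran from -0.032 (*Fabp7*) to 0.53 over its 5 pairs, and for the 10 pairs without *Erbb3* from 0.43 to 0.78. Centred on each group instead, these ranges were 0.22 to 0.56 and 0.36 to 0.79, and overlapped. These values describe 18 libraries that share experiments and scaling within an experiment, and *S100b* rests on few reads.

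Of 13976 genes tested in all 3 experiments, the 8 most like *Sox10* by this measure, with r from 0.88 down to 0.84, included *Astn2*, *Ttyh1*, *Scube1*, *Plxnb3*, *Kif1a*, *L1cam* and *Epb4.1l4a*. *L1cam* encodes a cell adhesion protein of axons and Schwann cells, and *Kif1a* a motor of axonal transport. After centring on each group instead, *Astn2* (0.95), *L1cam* (0.94) and *Kif1a* (0.91) stayed among the 8. *Foxd3* ranked 110, *Fabp7* 630, *Erbb3* 944 and *Cdh19* 1126 in likeness to *Sox10*.

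**Figure D4:**
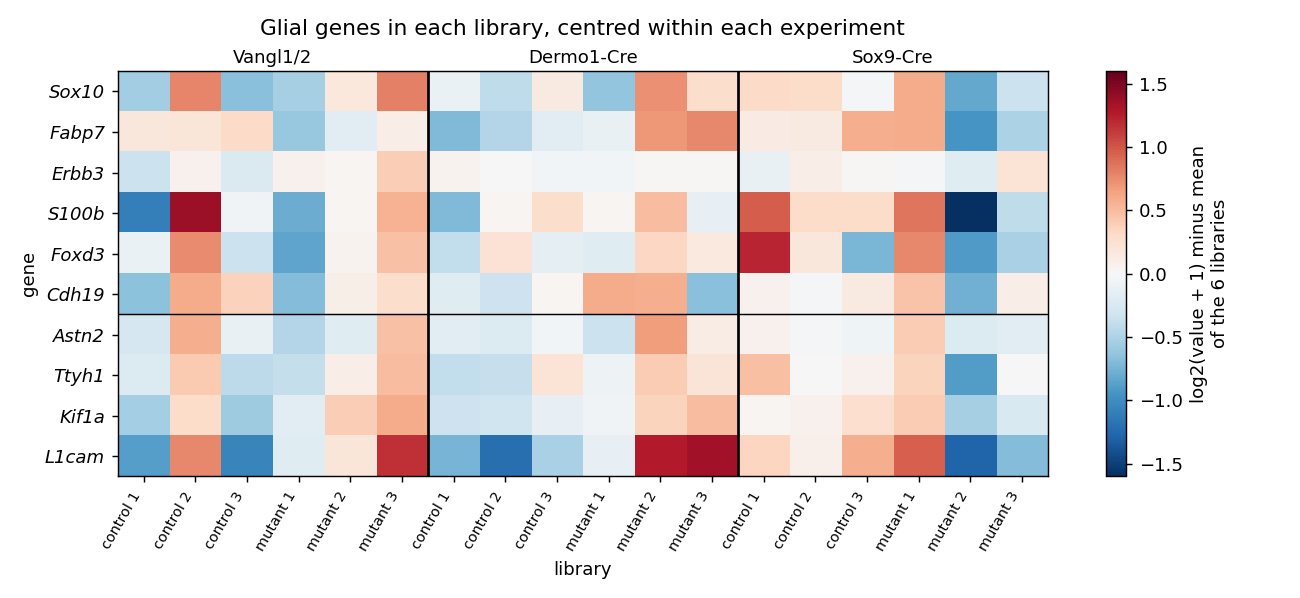
Log2 of the normalized count plus 1, minus the mean of the 6 libraries of the same experiment, for the 6 genes and 4 of the genes most like *Sox10* (rows) in 18 libraries (columns). Red is above and blue below the experiment's mean. *Sox10*, *S100b* and *Foxd3* are red in control 2 of *Vangl1/2* and mutant 1 of *Sox9-Cre* and blue in mutant 2 of *Sox9-Cre*, while the row of *Erbb3* is pale.

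The other 22 genes of Schwann cells and enteric glia that were looked up gave no call either. In each experiment 18 were tested and 0 passed an adjusted p of 0.05 in limma. At an unadjusted p below 0.05, 1 was lower with *Vangl1/2*, 3 were higher with *Dermo1-Cre* and 0 lay in either direction with *Sox9-Cre*. Of all tested genes, 8.56% were lower with *Vangl1/2* and 5.42% higher with *Dermo1-Cre* at that level. Neither edgeR nor DESeq2 called any of the 22, with no adjusted p from DESeq2 for 16 of them with *Vangl1/2*. Their median log2 fold changes were 0.13, 0.087 and -0.079. The 3 most abundant, the endothelin receptor gene *Ednrb*, the myelin gene *Pmp22* and *Gas7*, are expressed widely in mesenchyme. They overlapped between groups except for *Gas7* with *Sox9-Cre* (602, 594 and 585 normalized counts against 576, 584 and 582). There the nearest libraries stood at 585 and 584, and 4.36% of all tested genes had all mutants lower. Among the 3 higher with *Dermo1-Cre* was *Entpd2*, the ecto-ATPase of peripheral glia, at 11.02, 8.03 and 11.9 in controls and 17.1, 18.9 and 22.0 in mutants (log2 fold change 0.85 ± 0.31, SE, limma unadjusted p = 0.0211, adjusted p = 0.426). All 3 mutants lay above the controls, as did those of 7.65% of all tested genes. With *Vangl1/2* the gene was *Dhh*, a hedgehog ligand of Schwann cells, at 26.9, 32.6 and 22.1 in controls and 14.1, 12.8 and 18.7 in mutants (-0.80 ± 0.29, limma adjusted p = 0.233). *Entpd2* and *Dhh* were named after their values had been seen. *Egr2*, which drives myelination, stayed at or below 11.9 normalized counts in all libraries and was not tested.

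*Erbb3* signals with partners that were present in the same lungs. *Erbb2* held 1199 to 1946 normalized counts over the 18 libraries, and none of its contrasts passed the test (log2 fold changes 0.19, -0.082 and -0.0018). Among 7 genes of neuregulins and related receptors, 6 were tested and 0 passed an adjusted p of 0.05 in limma, edgeR or DESeq2, though DESeq2 gave no adjusted p for 5 of them with *Vangl1/2* and 2 with *Dermo1-Cre*. The 1 at an unadjusted p below 0.05 was the ligand gene *Nrg2* with *Sox9-Cre*, at 138, 162 and 153 in controls and 185, 176 and 181 in mutants (0.26 ± 0.10, limma adjusted p = 0.9999). *Egfr*, the epidermal growth factor receptor, overlapped in all experiments. Of 12 further crest regulators, 10, 9 and 9 were tested and 0 passed with any of these tools, with no adjusted p from DESeq2 for 5 with *Vangl1/2* and 1 with *Dermo1-Cre*. At an unadjusted p below 0.05, 3 were higher with *Vangl1/2* and 1 was lower with *Dermo1-Cre*, beside 12.0% and 4.76% of all tested genes. *Zeb2*, which is needed for crest cells to form and migrate, was 1 of the 3 higher with *Vangl1/2*, while *Snai2* (-0.031) and *Ednrb* (0.20) did not reach that level. *Zeb2* held 3321, 4780 and 3551 against 5053, 4975 and 5634 (log2 fold change 0.44 ± 0.14, limma adjusted p = 0.233). *Sox10* held 51.5 to 145 in the same lungs, and which cells gave the *Zeb2* reads was not tested.

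Glia come with nerves, and the neuronal genes moved with some of the same libraries. Over 20 neuronal genes the summed normalized counts with *Dermo1-Cre* were 1769, 1812 and 2583 in controls and 2684, 5187 and 5305 in mutants, so every mutant lay above the controls. Of 19 tested, 14 were higher and 1 lower at an unadjusted p below 0.05, beside 5.42% and 4.76% of all tested genes. In limma or edgeR 0 passed correction, while DESeq2 called 9 of them and 101 of 14277 genes in all. The median log2 fold change of the 19 was 1.29. *Stmn2*, a microtubule protein of growing axons, was 174, 163 and 276 in controls and 307, 632 and 592 in mutants (log2 fold change 1.29 ± 0.27, SE, limma adjusted p = 0.194). *Gap43*, the growth cone protein, was 293, 292 and 348 against 323, 605 and 562. *Fabp7* was highest in the same mutants, replicates 2 and 3. With *Sox9-Cre* the neuronal sums were 3935, 3447 and 4378 in controls and 4360, 1861 and 1852 in mutants, and the libraries with low neuronal sums, mutant replicates 2 and 3, are those low in *Sox10* and *Fabp7*. With *Vangl1/2* they were 1960, 2359 and 1904 against 2296, 2135 and 3125.

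As a share of the neuronal counts, the glial counts were lower in the *Dermo1-Cre* mutants, where the neuronal counts themselves were higher. The sum of *Sox10*, *Fabp7*, *S100b*, *Foxd3* and *Cdh19* was 7.98% to 9.03% of the neuronal sum in the controls and 5.35% to 6.54% in the mutants. The groups did not overlap in this share, for which no background over other gene sums was made. The glial sum itself was 156, 164 and 206 in controls and 175, 331 and 284 in mutants, so it was not lower. *Erbb3*, with the most reads of the 6, was left out of the sum. With *Vangl1/2* the share was 7.85% to 12.1% in controls and 5.13% to 8.81% in mutants, and with *Sox9-Cre* it was 5.08% to 6.27% and 5.24% to 7.75%, so both overlapped. Over the 18 libraries, centred within each experiment, Pearson's r with the neuronal sum was 0.86 for *Fabp7*, 0.69 for *Sox10* and 0.19 for *Erbb3*. For *S100b*, *Foxd3* and *Cdh19* it was 0.57, 0.48 and 0.30. The r of *Sox10* was of like size with the sum of the other glial genes looked up (0.68) and, inversely, the red blood cell list (-0.67). With the cartilage list it was 0.60 and with central nervous system progenitors 0.57. *Fabp7* had an r of 0.13 with the other glial genes. Over the 6 libraries of 1 experiment, r of *Fabp7* with the neuronal sum was 0.99 with *Dermo1-Cre*, 0.96 with *Sox9-Cre* and -0.11 with *Vangl1/2*. The pooled value thus does not describe the *Vangl1/2* libraries. For *Sox10* this r was 0.73, 0.85 and 0.77, and for *Erbb3* 0.079, -0.11 and 0.94, in the same order. Pooled over the 18 libraries, *Erbb3* lay nearest to the sum of the melanocyte list (0.82), and this r was not split by experiment. That sum was mostly *Kit*, at 500.2 to 1137 normalized counts, a receptor that mast cells and interstitial cells also make. *Tyrp1*, a defining pigment gene, was at 0 in every library, and *Dct*, *Tyr* and *Mlana* were at or below 7.23.

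**Figure D5:**
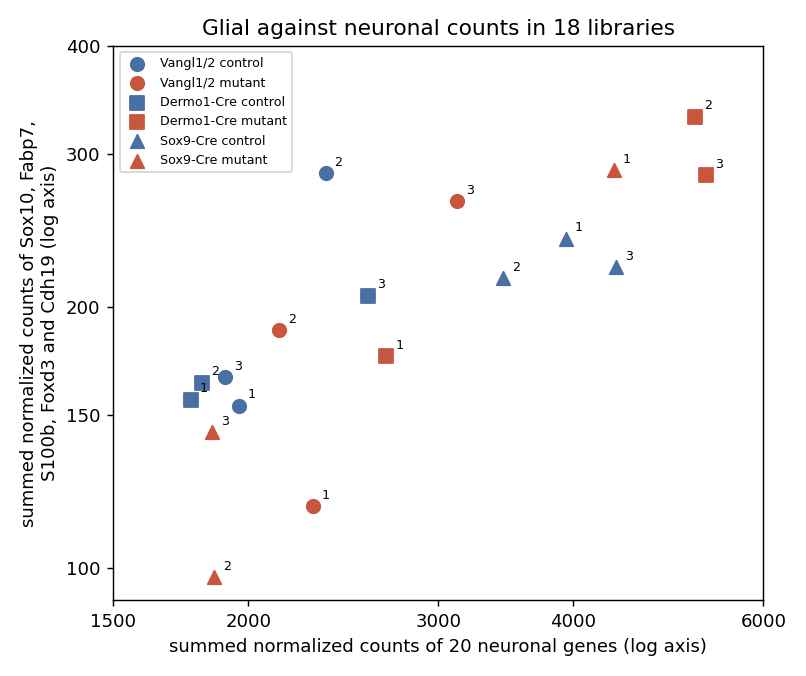
Summed normalized counts of *Sox10*, *Fabp7*, *S100b*, *Foxd3* and *Cdh19* against those of 20 neuronal genes in the 18 libraries, both on log axes. Circles are *Vangl1/2*, squares *Dermo1-Cre* and triangles *Sox9-Cre*, with controls in blue and mutants in red. *Dermo1-Cre* mutants 2 and 3 lie at the upper right (331 and 284 against 5187 and 5305) and *Sox9-Cre* mutant 2 at the lower left (97.6 against 1861).

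Markers of other tissue that a dissected lung can hold were read in the same libraries. Of 12 genes of central nervous system progenitors, *Olig2* was at 0 throughout and *Olig1*, *Sox1* and *Nkx2-2* never exceeded 1.99 normalized counts. The sum of that list, mostly *Slc1a3*, was 677 to 714 in *Dermo1-Cre* controls and 741 to 897 in mutants. The heart muscle list ranged from 946 to 21112 with *Dermo1-Cre*, from 1095 to 19210 with *Sox9-Cre* and from 631 to 8157 with *Vangl1/2*, and mutants and controls overlapped each time. With *Sox9-Cre*, 9 of its 12 genes were lower in mutants at an unadjusted p below 0.05, beside 2.81% of all tested genes. In limma 0 of them passed correction, and the sums were 5567 to 19210 in controls and 1095 to 6085 in mutants. Lung epithelium genes summed to 23392 to 24705 in *Dermo1-Cre* controls and 22121 to 22725 in mutants, while in the other experiments the groups overlapped. With *Dermo1-Cre*, 5 of these 12 genes were lower at an unadjusted p below 0.05, beside 4.76% of all tested genes. In limma 0 passed correction. No background over other gene sums was made for this list or that of central nervous system progenitors. Cartilage and red blood cell sums overlapped in all 3 experiments. The part of these tissues in the values of the 6 glial genes was not tested.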

How the data were processed

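Embryonic mouse lungs were profiled by bulk RNA-Seq in 3 experiments, each with 3 control and 3 mutant libraries grouped by their labels. RNA was extracted with TRIzol and RNeasy columns and sequenced on Illumina HiSeq instruments. The submitters' processing notes name Trim Galore, HISAT2, featureCounts, DESeq2 and the build mm10; their versions are not given in the sources used here. The authors deposited for each experiment a table whose values per library are a signal, gene counts divided by a size factor, scaled within that experiment. Further deposited columns hold the mean of the 6 libraries and the authors' own log2 fold change and p-value, and the latter pair was not used.

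Dividing by the step of each library gave whole reads for 100% of values (largest deviation 3.7e-05 reads, tolerance 0.0001), with 15945393 to 19814346 reads on genes per library. A gene at 10 normalized counts thus rests on about 10 reads, and intervals cover counting error or the spread between libraries only. No pair of replicates agreed within sampling noise. Gene names had been turned to dates by a spreadsheet in 27 of the 23420 rows of each table, none of them named here.

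Mutants were compared with controls within each table by limma 3.58.1 (R 4.3.3) with a mean-variance trend on log2(normalized count + 1), so fold changes of low genes are understated. Tests were limited to genes that reached 10 normalized counts in 3 or more of the 6 libraries, and p-values were adjusted by Benjamini-Hochberg over all of them at 0.05. Alternatives were edgeR 4.0.16 and DESeq2 1.42.0 on the recovered reads, TMM scaling, no filter, a pseudocount of 0.5 or 5, the replicate number as a block, removal of the trend with transcript length, and leaving out each library. The fit was tested on simulated data with 200 changed genes. Single genes were also compared by an exact two-sided permutation test. Lengths and locations came from GENCODE for GRCm38 (mm10) and upstream sequences from RefSeq.

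The 6 genes and the 10 other marker lists were chosen with earlier results of these data known. Beside the 6 genes and the targeted genes, the text names the 3 most abundant genes of a list, any gene of a list past the adjusted threshold, and the 8 genes most like *Sox10* by Pearson's r over 18 libraries, centred within each experiment; other names are said to be chosen after their values were seen or stand for defining markers at or near 0. Some genes that this rule or these counts include are not reported here.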

Additional observations from a re-analysis of the deposited data

Results flagged for a closer look

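*Fabp7* ran in opposite directions in 2 experiments, with no overlap between groups in either. Its log2 fold change was -0.45 in the *Vangl1/2* experiment, with all 3 mutants below all 3 controls, and 0.89 in the *Dermo1-Cre* experiment, with all 3 mutants above all 3 controls. Of all tested genes, 8.68% had all mutants lower with *Vangl1/2* and 7.65% had all mutants higher with *Dermo1-Cre*. With the trend with transcript length removed, the log2 fold changes of *Fabp7* were -0.12 with *Vangl1/2* and 0.94 with *Dermo1-Cre*. Neither difference passed correction, and the difference between the experiments was not tested. The neuronal sums were higher in the *Dermo1-Cre* mutants (2684 to 5305 against 1769 to 2583) and overlapped in the *Vangl1/2* experiment (2135 to 3125 against 1904 to 2359). Their part in *Fabp7* was not tested.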

How the results depend on the processing

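No glial gene passed the adjusted threshold under any alternative except *Erbb3* with *Vangl1/2*, which was called without control replicate 2. The number of glial genes called with *Vangl1/2* therefore ran from 0 to 1 when single libraries were left out. The number of all genes called depended strongly on single libraries. With *Vangl1/2* it was 1 in the main test, 11 with DESeq2, and 0 to 6183 with a library left out, the highest without control replicate 2 (4 without mutant replicate 3, 0 without any of the other 4). With *Dermo1-Cre* it was 2, 101 with DESeq2, and 0 to 54 with a library left out (54 without mutant replicate 1, 6 without control replicate 3, 5 without mutant replicate 2, 0 without any of the other 3). With *Sox9-Cre* it was 0, 9 with DESeq2, and 0 to 13 with a library left out (13 without mutant replicate 1, 4 without mutant replicate 2). The cause of these shifts was not tested.

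*Cdh19* turned with *Sox9-Cre* without mutant replicate 2 (0.22), and with *Vangl1/2* without control replicate 2 (0.038) or mutant replicate 1 (0.082), and ran from -0.39 to 0.22 and from -0.59 to 0.082 as libraries were left out. *Erbb3* turned with *Dermo1-Cre* without control replicate 1 (0.024) or mutant replicate 1 (0.019), and ran from -0.028 to 0.024 as libraries were left out. With *Sox9-Cre* it turned under TMM scaling (-0.00028), without control replicate 1 (-0.061) and without mutant replicate 3 (-0.11), and ran from -0.11 to 0.097 as libraries were left out. *Foxd3* turned with *Sox9-Cre* without control replicate 1 (0.053) and with *Vangl1/2* without control replicate 2 (0.11) or mutant replicate 1 (0.16), in ranges of -0.94 to 0.053 and -0.50 to 0.16. *Sox10* turned with *Dermo1-Cre* without mutant replicate 2 (-0.055) and with *Vangl1/2* without mutant replicate 3 (-0.037), in ranges of -0.055 to 0.63 and -0.037 to 0.76. *Fabp7* kept its sign throughout, from -0.61 to -0.12 with *Vangl1/2*, from 0.73 to 1.18 with *Dermo1-Cre* and from -1.02 to -0.25 with *Sox9-Cre*.

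With 3 libraries per group, whether the replicate numbers pair the samples cannot be told. Same-numbered control and mutant libraries correlated at 0.30, 0.049 and 0.013 with *Vangl1/2* and 0.073, -0.073 and -0.22 with *Dermo1-Cre*. With *Sox9-Cre* they correlated at 0.053, 0.13 and -0.12. The control of the same number was the nearest for mutant replicates 1 and 2 with *Vangl1/2* and replicate 2 with *Sox9-Cre*, and for none with *Dermo1-Cre*. With the replicate block, 0 glial genes were called, and the genes called in all were 0 with *Vangl1/2*, 16 with *Dermo1-Cre* and 0 with *Sox9-Cre*. Depth limits *S100b*, *Foxd3* and *Cdh19*, whose groups rest on 20 to 66 reads.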
